A study of Mus musculus with 6 samples.

Results

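The transport machinery of the cilium was described from 35 genes, those of intraflagellar transport, the BBSome and the ciliary motors, in RNA of sheets of mouse corneal epithelium, the stratified outer layer of the cornea. The genes were chosen by symbol, and all 35 were found among the 25006 Ensembl genes of the count table. The study set 3 libraries labelled EphA2 null against 3 libraries labelled wild type, and its title concerns cilium formation and autophagy under the receptor tyrosine kinase EphA2 in the cornea. All libraries came from total RNA of corneal epithelium and were sequenced on an Illumina HiSeq. No age, strain, sex or treatment is given in the labels, nor do they say how the null allele was made or whether each library is 1 animal, so the p-values here rest on a spread among samples that could be technical.

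Total counts ran from 15308013 to 27586942 per library. Levels are given as CPM, that is, each gene's reads put on 1 scale for all libraries by edgeR's TMM factors. The corneal keratin gene Krt12 and the eye transcription factor gene Pax6 were abundant, at 13056 to 16014 CPM and 814 to 939.7 CPM. Epha2 itself was at 284, 652 and 578 CPM in EphA2 null-labelled libraries 1, 2 and 3, against 298, 253 and 562 CPM in wild type 1, 2 and 3. Counts per gene do not show the loss of part of a gene, and the Epha2 level did not separate the groups, so each genotype direction rests on the label. The titles carry a number in a lower range for the library labelled EphA2 null 1 and wild type 1 and 2, and in a higher range for the libraries labelled EphA2 null 2 and 3 and wild type 3. Wild type 1 and 2 share 1 number, as do the libraries labelled EphA2 null 2 and 3, so each range holds 3 libraries but only 2 numbers. The labels do not say what this number stands for. Libraries stood apart by it across the transcriptome, so genotype differences were also fitted with the range as a further term. Epha2 was at 253 to 298 CPM in the lower-number libraries and 562 to 652 CPM in the higher-number libraries, without overlap. Of all tested genes 30.2% likewise had all higher-number libraries above the others.

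The primary cilium is a single antenna-like organelle built on a centriole, and it has no ribosomes of its own. Its proteins are carried along the axoneme on trains of intraflagellar transport (IFT) complexes. The IFT-B complex moves outward with the motor kinesin-2, the IFT-A complex takes part in the return trip with cytoplasmic dynein-2 and in bringing membrane proteins in, and the BBSome is an adaptor that carries membrane receptors out. Loss of several of these genes in humans causes ciliopathies such as Bardet-Biedl syndrome, and in epithelia the primary cilium takes part in Hedgehog signalling and in the orientation of cell division.

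All 35 genes were detected in every library, with 26 to 1597 counts per gene and library, and all 35 passed the filter on low counts. Their summed level was 774, 676 and 692 CPM in EphA2 null-labelled libraries 1, 2 and 3, against 749.8, 746 and 673 CPM in wild type 1, 2 and 3. The groups overlap: null 1 had the highest sum and wild type 3 the lowest. The sum was higher in all 3 lower-number libraries, at 746 CPM or more, than in the 3 higher-number libraries, at 692 CPM or less. In bulk RNA fewer ciliated cells and less RNA per cell cannot be told apart. Markers of motile cilia and multiciliated cells were low, and 4 of the 16 passed the filter on low counts: 2 had 0 counts in every library, the motile cilium regulator gene Foxj1 had 4 counts in all libraries together, and the summed level was 6.10 to 7.58 CPM in EphA2 null-labelled libraries and 4.97 to 7.56 CPM in wild type. Most of that sum came from Rsph1, a radial spoke gene, at 1.40 to 3.06 CPM, Tekt2, an axonemal tektin gene, at 0.916 to 2.24 CPM, and Ccdc39, a gene for assembly of dynein arms, at 0.885 to 2.79 CPM. Those ranges overlap with that of Bbs12, the member with the lowest mean, at 1.75 to 3.67 CPM. Of the 4, Tekt2 was called higher in the higher-number libraries (log2 fold change 0.98 ± 0.29, adjusted p = 0.0241, edgeR), as were 24.6% of all tested genes. The other 3 were not called.

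**Figure D1:**
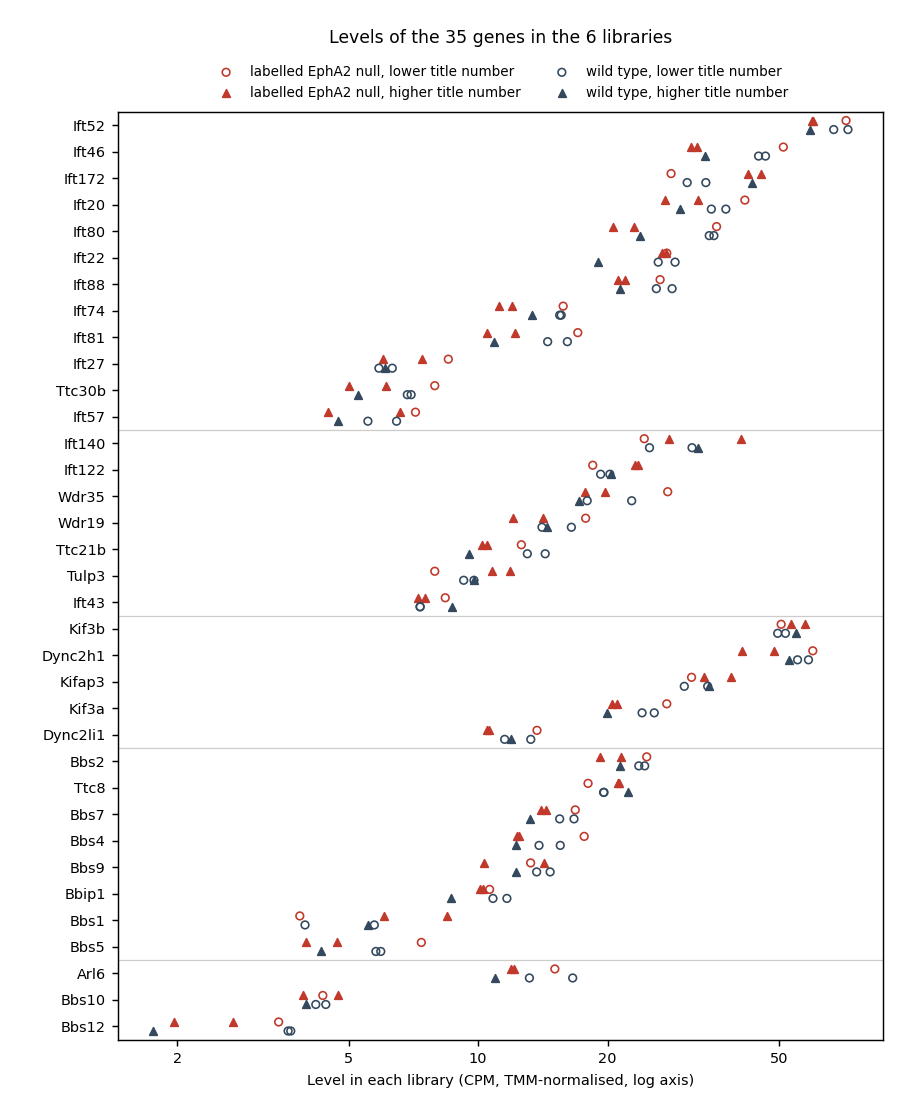
Level of each gene in each library in CPM on a log axis, with genes grouped by role and ordered by mean level. Circles are libraries with lower and triangles libraries with higher title numbers; for Ift80 the 3 triangles lie at 20.6 to 23.8 CPM, left of the 3 circles at 34.5 CPM or more, whichever the genotype.

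None of the transport genes passed the test between the genotypes. With edgeR's quasi-likelihood test on 12847 genes, 0 of the 35 were higher and 0 lower at a Benjamini-Hochberg adjusted p under 0.05, and each had an adjusted p of 0.9996. Over all tested genes 0.00778% were called higher and 0.0% lower. None of the 35 reached an unadjusted p of 0.05 either, against 1.18% of all tested genes, DESeq2 called 0 of them, against 0.0272% of its genes, and limma voom 0. In no gene did the libraries labelled EphA2 null lie all above or all below the wild type libraries, where 3.73% of all tested genes did. The log2 fold changes, libraries labelled EphA2 null over wild type, ran from -0.24 to 0.27, with 33 of 35 within 0.25 of 0. Their median was -0.01, with 13 above 0 and 22 below, beside a median of 0.01 over all tested genes.

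Adding the title number range to the model narrowed the errors and left every gene uncalled. The median SE of the genotype log2 fold change over the 35 genes was 0.191 without the term and 0.132 with it. With the term 22 genes lay above 0 and 13 below, with a median of 0.05, and 0 of 35 reached an unadjusted p of 0.05, against 3.87% of all tested genes. Within the lower title numbers the median log2 difference between the genotypes was 0.04, and within the higher ones 0.05. Only 16 of 35 genes had the same sign within both ranges. A change of the genotype difference between the ranges was called in 0 of 35 genes (interaction term in edgeR, unadjusted p of at least 0.0529, with 4.71% of all tested genes under 0.05). Over all tested genes 0.0% passed an adjusted p of 0.05 in either direction. The lower range holds a single null-labelled library and the higher range a single wild type library, so this test can miss such changes. These data limit large differences more than small ones. On simulated counts the genotype fit recovered 2% of genes changed 1.5-fold, 30% of those changed 2-fold and 98% of those changed 4-fold. With the title number term it was 38%, 82% and 100%. Genes left unchanged in the simulation were also called, 14 of them without the term and 15 with it. A p that misses the threshold does not show that a level was equal.

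**Figure D2:**
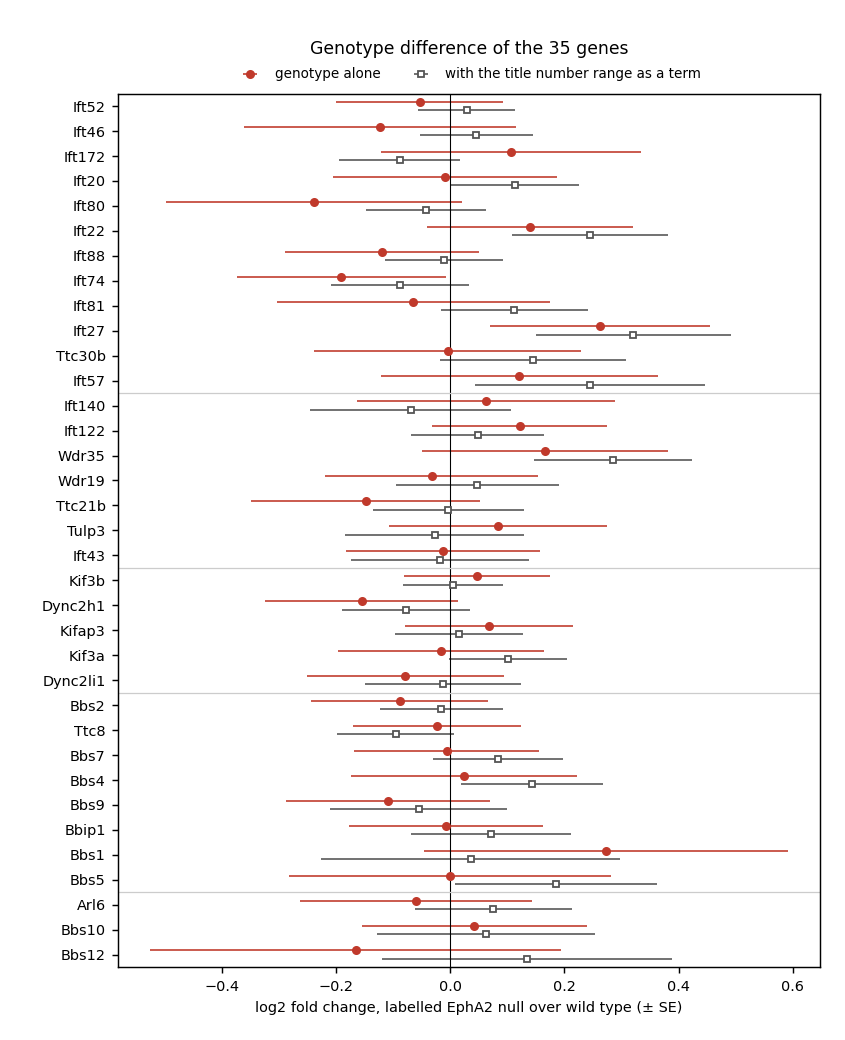
Log2 fold change of each gene, libraries labelled EphA2 null over wild type, with bars of 1 SE from edgeR; filled circles are from the model with genotype alone and open squares from the model that adds the range of title numbers. The circles lie between -0.24 (Ift80) and 0.27 (Bbs1), and none of the 35 genes was called in either model.

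The IFT-B genes encode the particle that carries tubulin and other cargo towards the ciliary tip. Their 12 members summed to 339, 275 and 278 CPM in EphA2 null-labelled libraries 1, 2 and 3, against 319, 327 and 270.1 CPM in wild type 1, 2 and 3. Highest was the library labelled EphA2 null 1 and lowest wild type 3. Ift27 (ENSMUSG00000016637, chromosome 15, 78159463 to 78174107 in GRCm38), a Rab-like small GTPase that also links the train to BBSome export, had the smallest genotype p of the 35 genes. Its level was 8.53, 5.998 and 7.39 CPM in EphA2 null-labelled libraries 1, 2 and 3, against 6.32, 5.88 and 6.07 CPM in wild type 1, 2 and 3. Highest were the libraries labelled EphA2 null 1 and 3, but null 2 lay among the wild type libraries. The log2 fold change was 0.26 ± 0.19 (SE, n = 3 per group; unadjusted p = 0.214 and adjusted p = 0.9996, edgeR) and 0.32 ± 0.17 with the title number term (unadjusted p = 0.0936, edgeR).

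Ift22, another small GTPase-like subunit, was at 27.5, 27.3 and 26.8 CPM in EphA2 null-labelled libraries 1, 2 and 3, against 26.2, 28.7 and 19.030 CPM in wild type 1, 2 and 3. Wild type 3 alone was low, and the other 5 libraries lay within 26.2 to 28.7 CPM. Its log2 fold change was 0.14 ± 0.18, or 0.00 among lower and 0.50 among higher title numbers, and the second value rests on wild type 3 as the only wild type library there. Ift74, which forms a tubulin-binding module with Ift81, was at 15.8, 11.996 and 11.2 CPM in EphA2 null-labelled libraries 1, 2 and 3, against 15.5, 15.6 and 13.4 CPM in wild type 1, 2 and 3. Its lowest values were the libraries labelled EphA2 null 2 and 3, and the library labelled EphA2 null 1 was above all wild type libraries, with a log2 fold change of -0.19 ± 0.18. Of the other IFT-B genes, Ift57, which takes part in linking the train to kinesin, spanned 4.47 to 7.15 CPM over the 6 libraries with a log2 fold change of 0.12 ± 0.24. Ift88, a core subunit whose mutation in mice gives polycystic kidneys, spanned 21.2 to 28.3 CPM with -0.12 ± 0.17.

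Ttc30b, the gene for the tetratricopeptide subunit also called IFT70, spanned 5.01 to 7.93 CPM with a log2 fold change of -0.00 ± 0.23. Its reading frame is 94.9% identical to that of Ttc30a1 and of Ttc30a2 (1995 bases each in GENCODE M21), and how reads shared by the copies were counted is not given in the sources used here, so its level is uncertain. Ttc30a1 was counted at 1.18 to 3.84 CPM and Ttc30a2 at 0.0370 to 0.138 CPM.

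The IFT-A genes and Tulp3, the adaptor that brings receptors to IFT-A, summed to 117, 111 and 125 CPM in EphA2 null-labelled libraries 1, 2 and 3, against 118, 110.2 and 113 CPM in wild type 1, 2 and 3. The sums of these 7 genes overlap between the genotypes. Wdr35, a peripheral IFT-A subunit, was at 27.6, 19.8 and 17.7 CPM in EphA2 null-labelled libraries 1, 2 and 3, against 22.8, 17.9 and 17.2 CPM in wild type 1, 2 and 3. One library labelled EphA2 null, null 1, was above the rest, and the log2 fold change was 0.17 ± 0.21, or 0.29 ± 0.14 with the title number term (unadjusted p = 0.0719, edgeR). Ift122, a core IFT-A subunit, was at 18.5, 23.2 and 23.6 CPM in EphA2 null-labelled libraries 1, 2 and 3, against 20.2, 19.3 and 20.4 CPM in wild type 1, 2 and 3. Its 2 highest values were in the libraries labelled EphA2 null 2 and 3 and its lowest in null 1, with a log2 fold change of 0.12 ± 0.15.

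Ttc21b, the large tetratricopeptide subunit of IFT-A, was at 12.6, 10.5 and 10.2 CPM in EphA2 null-labelled libraries 1, 2 and 3, against 13.017, 14.3 and 9.52 CPM in wild type 1, 2 and 3. The lowest value was in wild type 3 and the highest in wild type 2, with a log2 fold change of -0.15 ± 0.20. Tulp3 was at 7.93, 10.8 and 11.8 CPM in EphA2 null-labelled libraries 1, 2 and 3, against 9.26, 9.78 and 9.79 CPM in wild type 1, 2 and 3, with the lowest and the highest values both in libraries labelled EphA2 null and a log2 fold change of 0.08 ± 0.19. Ift140 spanned 24.3 to 40.8 CPM, Wdr19 12.045 to 17.8 CPM and Ift43 7.24 to 8.71 CPM. Their log2 fold changes were 0.06 ± 0.23 for Ift140 and -0.03 ± 0.19 for Wdr19, both core subunits, and -0.01 ± 0.17 for Ift43, a small peripheral one.

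The motor genes had a summed level of 183, 167 and 169 CPM in EphA2 null-labelled libraries 1, 2 and 3, against 179, 176 and 174 CPM in wild type 1, 2 and 3. Kif3b, 1 of the paired kinesin-2 motor subunits, was the steadiest of the 35 genes: it was at 50.7, 53.5 and 57.4 CPM in EphA2 null-labelled libraries 1, 2 and 3, against 51.8, 49.7 and 54.9 CPM in wild type 1, 2 and 3. Its highest value was 1.16 times its lowest, and the log2 fold change was 0.05 ± 0.13. Kif3a, the partner motor subunit, was at 27.5, 20.5 and 21.1 CPM in EphA2 null-labelled libraries 1, 2 and 3, against 24.1, 25.7 and 19.975 CPM in wild type 1, 2 and 3, with a log2 fold change of -0.02 ± 0.18. Kifap3, which encodes the non-motor subunit of the same kinesin, was at 31.4, 33.5 and 38.6 CPM in EphA2 null-labelled libraries 1, 2 and 3, against 34.2, 30.2 and 34.4 CPM in wild type 1, 2 and 3, with a log2 fold change of 0.07 ± 0.15. None of the 3 kinesin-2 genes separated the genotypes. Kinesin-2 and its non-motor subunit also serve transport outside the cilium, and so do some other genes described here.

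Dync2h1, the heavy chain of the dynein that returns trains to the cell body, was at 60.003, 48.7 and 41.021 CPM in EphA2 null-labelled libraries 1, 2 and 3, against 55.3, 58.6 and 52.8 CPM in wild type 1, 2 and 3. The lowest values were in the libraries labelled EphA2 null 3 and 2, but null 1 had the highest value, and the log2 fold change was -0.16 ± 0.17. Dync2li1, its light intermediate chain, spanned 10.5 to 13.7 CPM with a log2 fold change of -0.08 ± 0.17.

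The 8 BBSome subunit genes summed to 112, 103 and 101 CPM in EphA2 null-labelled libraries 1, 2 and 3, against 113, 108 and 99.9 CPM in wild type 1, 2 and 3, again without separation of the genotypes. Bbs1 (ENSMUSG00000006464, chromosome 19, 4886878 to 4906628 in GRCm38), the subunit that binds the membrane-recruiting GTPase Arl6, had the largest positive genotype log2 fold change of the 35 genes. It was at 3.85, 6.05 and 8.47 CPM in EphA2 null-labelled libraries 1, 2 and 3, against 5.74, 3.96 and 5.53 CPM in wild type 1, 2 and 3. Highest of all 6 was the library labelled EphA2 null 3 and lowest null 1, and the log2 fold change was 0.27 ± 0.32, or 0.04 ± 0.26 with the title number term. Within the lower title numbers the genotype difference was -0.30 and within the higher ones 0.37 on the log2 scale. Bbs4, a tetratricopeptide subunit, was at 17.6, 12.3 and 12.4 CPM in EphA2 null-labelled libraries 1, 2 and 3, against 15.5, 13.9 and 12.3 CPM in wild type 1, 2 and 3, with 0.02 ± 0.20, and Bbs5, a subunit with lipid-binding domains, at 7.38, 3.98 and 4.70 CPM in EphA2 null-labelled libraries 1, 2 and 3, against 5.79, 5.94 and 4.32 CPM in wild type 1, 2 and 3, with a log2 fold change of 0.00 ± 0.28. For Bbs4 and Bbs5 the library labelled EphA2 null 1 was the highest of the 6 libraries, and the other libraries labelled EphA2 null lay at or near the lowest wild type value.

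Of the other BBSome subunits, Bbs2 spanned 19.2 to 24.7 CPM (-0.09 ± 0.15 as log2 fold change), Bbs7 13.2 to 16.8 CPM (-0.01 ± 0.16) and Bbs9 10.3 to 14.7 CPM (-0.11 ± 0.18), all 3 with beta-propeller domains. Ttc8, another tetratricopeptide subunit, spanned 18.015 to 22.3 CPM with a log2 fold change of -0.02 ± 0.15, and Bbip1, the smallest subunit, 8.64 to 11.7 CPM with -0.01 ± 0.17. Bbs4 shares 194 exonic bases with Adpgk and Bbip1 97 with Shoc2, each on the opposite strand, and the strand setting of the counting is not given in the sources used here, so reads there cannot be told apart. Mean levels were 14.6 CPM for Adpgk and 177 CPM for Shoc2.

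Bbs12 and Bbs10 encode chaperonin-like proteins that help assemble the BBSome, and Arl6 the GTPase that recruits it to membranes. Bbs12 was the least abundant of the 35 genes in CPM, at 3.44, 1.97 and 2.69 CPM in EphA2 null-labelled libraries 1, 2 and 3, against 3.62, 3.67 and 1.75 CPM in wild type 1, 2 and 3. The log2 fold change was -0.17 ± 0.36, and the low values were in the libraries labelled EphA2 null 2 and 3 and in wild type 3. Bbs12 shares 32 exonic bases with Cetn4 on the opposite strand, which was at 0.659 CPM on average. Bbs10 spanned 3.92 to 4.72 CPM with a log2 fold change of 0.04 ± 0.20, and Arl6 10.9 to 16.6 CPM with -0.06 ± 0.20.

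Between the title number ranges 14 of the 35 transport genes passed the test, and 21 did not. This comparison was made because earlier results of these data had shown the libraries apart by that range. Its p-values therefore describe a split picked from the same counts. With genotype in the model, edgeR called 13 of 35 lower and 1 higher in the higher-number libraries at an adjusted p under 0.05. Over all tested genes 20.1% were called lower and 24.6% higher, so the members' share called lower was 37.1% and their share called higher 2.86%. The median log2 fold change of the 35, higher over lower title numbers, was -0.27, with 26 genes below 0, beside a median of -0.01 over all tested genes. At an unadjusted p under 0.05 it was 17 of 35 lower, beside 25.3% of all tested genes. The 3 higher-number libraries lay below all 3 lower-number libraries in 18 of 35 genes and above them in 5, where 28.8% and 30.2% of all tested genes did so. The title number is not labelled as a treatment, and what differs between the ranges (animals, dissection, RNA preparation or sequencing) cannot be told apart.

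By role, 6 of the 12 IFT-B genes, 2 of the 7 IFT-A genes with Tulp3, 1 of the 5 motor genes, 2 of the 8 BBSome genes and 2 of the 3 assembly and recruitment genes were called lower. Over all tested genes it was 20.1%, and the shares for IFT-A, the motors and the BBSome lay near that. The median log2 fold change was -0.34 for IFT-B and 0.02 for IFT-A with Tulp3, a difference between roles that was not tested. Ift80, a peripheral IFT-B subunit with WD repeats (ENSMUSG00000027778, chromosome 3, 68892499 to 69004570 in GRCm38), had the smallest p. It was at 35.8, 20.6 and 22.993 CPM in EphA2 null-labelled libraries 1, 2 and 3, against 35.3, 34.5 and 23.8 CPM in wild type 1, 2 and 3. Those values average 22.5 ± 1.70 CPM in the higher-number libraries and 35.2 ± 0.697 CPM in the lower-number libraries (SD, n = 3 libraries each, from 2 title numbers), with no overlap, and the log2 fold change was -0.64 ± 0.11 (± SE, adjusted p = 0.00314 in edgeR). Ift46, a core subunit that takes part in carrying outer dynein arms in motile cilia, was at 51.2, 32.3 and 31.3 CPM in EphA2 null-labelled libraries 1, 2 and 3, against 44.9, 46.6 and 33.6 CPM in wild type 1, 2 and 3. Its log2 fold change was -0.57 ± 0.10 (adjusted p = 0.00370, edgeR), with all 3 higher-number libraries below the others.

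Ift81, the tubulin-binding partner of Ift74, was at 17.1, 10.5 and 12.2 CPM in EphA2 null-labelled libraries 1, 2 and 3, against 14.5, 16.1 and 10.9 CPM in wild type 1, 2 and 3. It was lower in all 3 higher-number libraries, with a log2 fold change of -0.54 ± 0.13 (adjusted p = 0.0109, edgeR). Ift20, an IFT-B subunit that also resides at the Golgi and helps sort ciliary membrane cargo, was at 41.7, 32.4 and 27.2 CPM in EphA2 null-labelled libraries 1, 2 and 3, against 34.9, 37.7 and 29.4 CPM in wild type 1, 2 and 3. Its title number difference was -0.40 ± 0.11 as log2 fold change (adjusted p = 0.0219, edgeR). Ift88 and Ift52 were lower by smaller amounts, with -0.32 ± 0.10 (adjusted p = 0.0352) and -0.25 ± 0.09 (adjusted p = 0.0428, edgeR). Ift74, the partner of Ift81 in the particle, narrowly missed the threshold, with -0.33 ± 0.12 (adjusted p = 0.0510, edgeR). Ttc30b narrowly missed it as well, with -0.45 ± 0.16 (adjusted p = 0.0502, edgeR). In both genes the higher-number libraries lay below all the lower-number libraries. The difference between Ift74 and Ift81 was not tested.

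Ift172 (ENSMUSG00000038564, chromosome 5, 31253277 to 31291116 in GRCm38), the large IFT-B subunit that takes part in the turnaround at the ciliary tip, was the only gene of the 35 called higher. It was at 28.1, 42.5 and 45.4 CPM in EphA2 null-labelled libraries 1, 2 and 3, against 33.8, 30.6 and 43.4 CPM in wild type 1, 2 and 3. Its 3 highest values were in the libraries labelled EphA2 null 2 and 3 and in wild type 3, and the log2 fold change was 0.54 ± 0.11 (SE; adjusted p = 0.00553, edgeR). Bbs1 had a similar log2 fold change, 0.56 ± 0.26, but its libraries overlapped between the ranges and it did not pass (adjusted p = 0.112, edgeR). Ift122, Tulp3, Kif3b and Ttc8 also had all 3 higher-number libraries above the rest, with log2 fold changes of 0.19 ± 0.12, 0.28 ± 0.16, 0.12 ± 0.09 and 0.21 ± 0.10, none past the threshold.

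Outside IFT-B, Bbs5 had a log2 fold change of -0.61 ± 0.18 (adjusted p = 0.0230), Bbs4 -0.39 ± 0.12 (adjusted p = 0.0333), Bbs12 -0.77 ± 0.25 (adjusted p = 0.0360) and Arl6 -0.38 ± 0.14 (adjusted p = 0.0499, edgeR). Bbs12 averaged 2.14 ± 0.489 CPM in the higher-number libraries and 3.57 ± 0.121 CPM in the lower-number libraries (SD, n = 3 libraries each, from 2 title numbers), the largest fold of the 35 genes and the one from the fewest counts. Adpgk, which shares exonic bases with Bbs4, had a log2 fold change of 0.34 in the other direction (adjusted p = 0.0802, edgeR). In the motors Kif3a fell by 0.36 on the log2 scale (adjusted p = 0.0221, edgeR), while Kif3b had 0.12 ± 0.09 (adjusted p = 0.281). The difference between the paired subunits was not tested. In IFT-A, Wdr35 (-0.41 ± 0.14, adjusted p = 0.0412) and Ttc21b (-0.40 ± 0.13, adjusted p = 0.0378, edgeR) were lower.

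These calls were lost without the library labelled EphA2 null 1, the only one of its genotype with a lower title number. Leaving out wild type 3 confines the comparison of ranges to the libraries labelled EphA2 null. Leaving out null 1 confines it to wild type, so the part of null 1 in the calls cannot be told apart from that limit of the design. Without it edgeR called 0 of 35 genes lower or higher, and 1103 of all genes in place of 5740. Ift80, Ift46, Ift172 and Ift81 kept an adjusted p under 0.05 without each of the other 5 libraries. The counts of libraries that share a genotype and a title number were also summed, an alternative added after seeing the data that leaves 2 samples per range. In that fit 6 genes were called lower (Ift20, Ift46, Ift80, Ift81, Wdr35 and Bbs5) and Ift172 higher. The share of all tested genes called in that fit is not given here.

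Some markers of cell types also differed between the title number ranges, over which 24.6% of all tested genes were called higher and 20.1% lower. Of 8 corneal epithelium markers, 3 were called higher in the higher-number libraries and 0 lower: the adhesion gene Cdh1 (log2 fold change 0.85 ± 0.14, adjusted p = 0.00301), the corneal crystallin gene Aldh3a1 (0.63 ± 0.16, adjusted p = 0.0146) and Tkt, another abundant corneal enzyme gene (0.38 ± 0.13, adjusted p = 0.0373, edgeR). Krt5, Krt12 and Pax6 were not called, with 0.30 ± 0.14, 0.24 ± 0.13 and 0.01 ± 0.11. Krt14 and Epcam were not called either and lay in the other direction, with -0.29 ± 0.31 and -0.22 ± 0.12. Summed, the epithelial list was at 74894 to 82110.3 CPM in the higher-number libraries and 57744 to 65552 CPM in the lower-number libraries, with no overlap. Most of that sum came from Krt5, Aldh3a1 and Krt12, with means of 26959, 19144 and 14579 CPM, and of these only Aldh3a1 was called. Of 10 leukocyte markers 8 were tested, 5 were called lower and 0 higher, and Ptprc, the pan-leukocyte marker, was at 0.246 to 1.93 CPM with -2.71 ± 0.36 (adjusted p = 0.00202, edgeR). The called markers Ptprc, Csf1r, C1qa and C1qb were scarce, with means of 0.738 to 0.916 CPM over the 6 libraries, and Cd74 averaged 7.34 CPM. The more abundant Itgam, at 266 to 318 CPM, and Cd68, at 21.7 to 26.4 CPM, were not called (0.06 ± 0.10 and -0.09 ± 0.12). Summed, the leukocyte list was at 301 to 349 CPM in the higher-number libraries and 308 to 349 CPM in the lower-number libraries, most of it from Itgam.

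Of 8 stromal keratocyte and fibroblast markers 2 were tested. Vim, an intermediate filament gene of mesenchymal cells, was called lower, at 0.336 to 1.78 CPM with a log2 fold change of -1.94 ± 0.33 (adjusted p = 0.00332, edgeR). Pdgfra, a growth factor receptor gene, was at 9.88 to 16.4 CPM and was not called (0.29 ± 0.20). The defining stromal genes Kera and Lum had 0 counts in all libraries, and the summed list was at 10.8 to 17.2 CPM in the higher-number libraries and 13.2 to 14.4 CPM in the lower-number libraries. Of 7 endothelium, nerve and vessel markers 2 were tested, and Slc4a11, a corneal endothelial transporter gene, was called higher, at 9.84 to 36.5 CPM with 1.04 ± 0.22 (adjusted p = 0.00675, edgeR). Summed, that list was at 21.7 to 39.7 CPM in the higher-number libraries and 13.9 to 16.7 CPM in the lower-number libraries. Over all tested genes 20.1% were called lower and 24.6% higher. The part of other cell types in the title number difference was not tested.

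**Figure D3:**
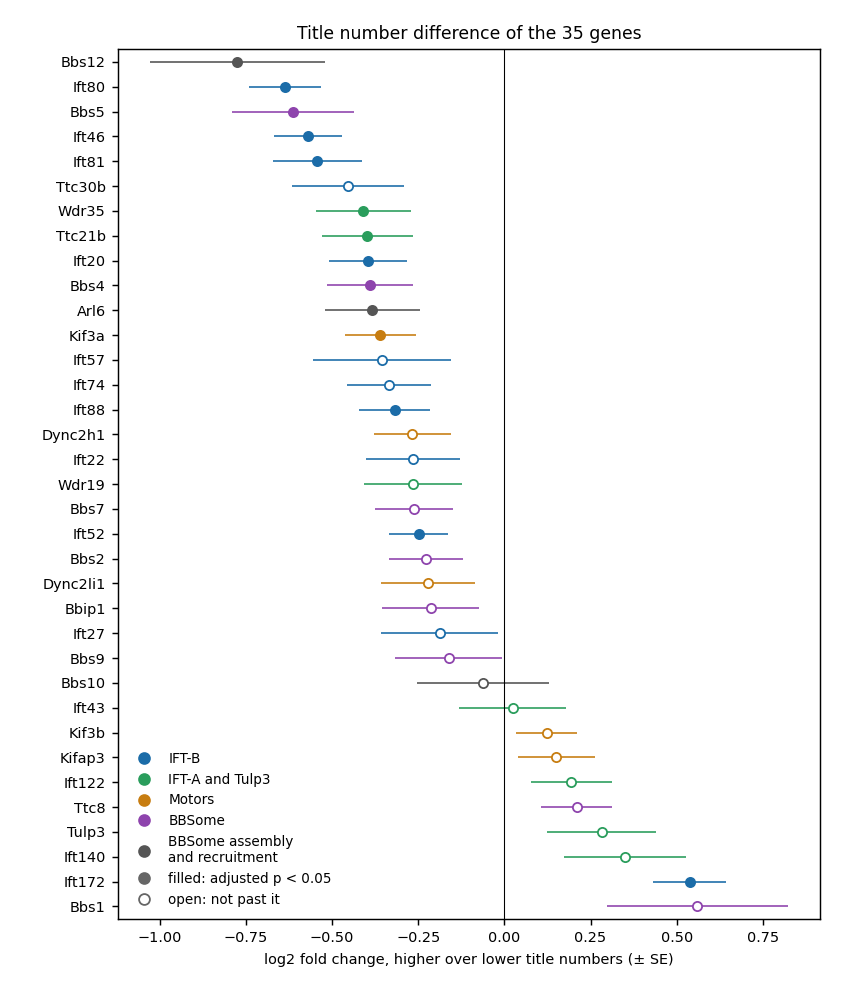
Log2 fold change of each gene between libraries with higher and lower title numbers, with bars of 1 SE from edgeR with genotype in the model; colour gives the role and filled points passed an adjusted p of 0.05. The 13 filled points on the left run from -0.77 (Bbs12) to -0.25 (Ift52), and Ift172 at 0.54 is the 1 filled point on the right.

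Levels were compared between genes only per length, as CPM per kilobase of merged exons. The 35 genes ran from 0.730 CPM per kilobase for Bbs1 to 23.2 for Ift52, with a median of 2.82, beside 5.44 over all tested genes. Ift52 and Ift20 stood above the rest, at 23.2 and 22.2 CPM per kilobase, followed by the kinesin-2 genes Kif3b at 9.41 and Kifap3 at 8.40. In CPM, Ift52 was at 71.7, 60.2 and 59.6 CPM in EphA2 null-labelled libraries 1, 2 and 3, against 67.1, 72.4 and 59.2 CPM in wild type 1, 2 and 3. At the low end, Ttc21b was at 1.26, Bbs12 at 1.17, Tulp3 at 1.06 and Bbs1 at 0.730 CPM per kilobase. By role the medians were 5.23 for IFT-B, 2.02 for IFT-A with Tulp3, 6.45 for the motors, 2.34 for the BBSome and 1.40 for assembly and recruitment.

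Neighbours in this order were often closer than the libraries were to each other. Ift27, Ttc30b, Ift80, Ift81 and Bbs4 all had 2.32 to 2.34 CPM per kilobase on average, while the highest library of Ift80 alone was 1.74 times its lowest. Across the 35 genes the median of that ratio of highest to lowest library was 1.46. With the length of the longest transcript in place of merged exons the order was similar (Spearman's rho = 0.902 across the 35 genes, a description over genes that share libraries), Ift20 and Ift52 stayed the top pair and Bbs1 the lowest, but Ift43 went to place 5, against place 15 with merged exons.

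**Figure D4:**
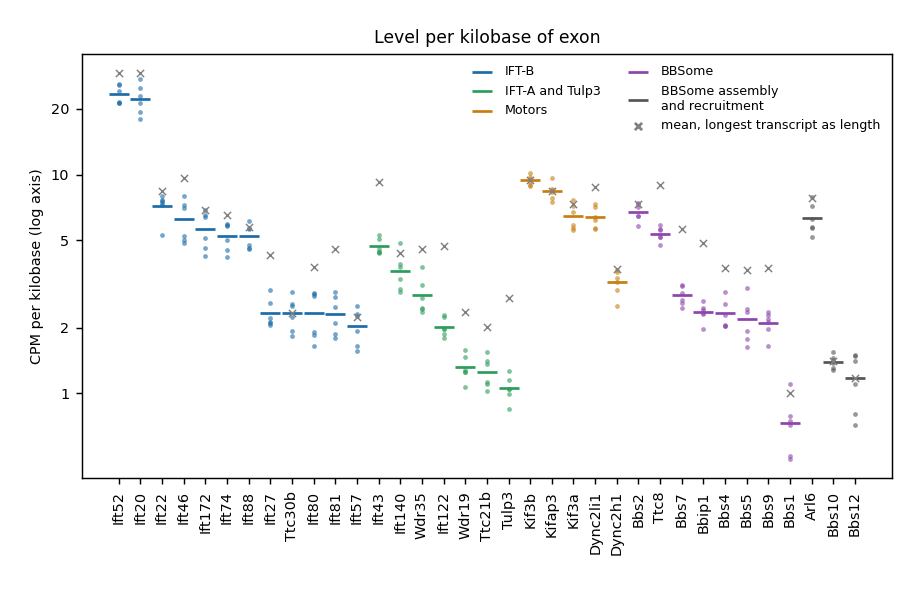
Level per kilobase of merged exons on a log axis, with small points for the 6 libraries, a bar for their mean and a cross for the mean with the longest transcript as length; genes are grouped by role. Ift52 and Ift20 stand at 23.2 and 22.2 CPM per kilobase, and Bbs1 at 0.730.

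The other genes of the pathway, 27 further IFT, BBSome, motor and ciliary cargo genes, likewise had no calls between the genotypes: of 25 tested, 0 were called higher and 0 lower. None reached an unadjusted p of 0.05 in edgeR, beside 1.18% of all tested genes, and the median log2 fold change was 0.05. The smallest p-values belonged to Kif17, Arl3 and Wdr34. Kif17, a second ciliary kinesin, was at 0.458, 2.11 and 0.672 CPM in EphA2 null-labelled libraries 1, 2 and 3, against 0.241, 0.466 and 0.675 CPM in wild type 1, 2 and 3, with a log2 fold change of 1.24 ± 0.68 (SE; unadjusted p = 0.109, edgeR). The library labelled EphA2 null 2 alone was high, and the groups overlapped. Arl3, a GTPase that releases lipidated cargo in the cilium, had 0.28 ± 0.19 (unadjusted p = 0.175, edgeR). Wdr34, a dynein-2 intermediate chain, had -0.16 ± 0.14 (unadjusted p = 0.282, edgeR). Its libraries labelled EphA2 null lay all below the wild type libraries, at 16.863 CPM or less against 16.874 CPM or more. It was the only 1 of the 25 without overlap between the genotypes, where 3.73% of all tested genes had none. Between the title numbers 10 of the 25 were called lower and 4 higher, beside 20.1% and 24.6% of all tested genes. Among them were Mkks, the third BBSome chaperonin-like gene, with -0.53 ± 0.13 (adjusted p = 0.0140), and Inpp5e, the ciliary phosphoinositide phosphatase gene, with 0.71 ± 0.12 (adjusted p = 0.00370, edgeR).

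Promoter sequence was used neither in the choice of genes nor in the counts. Many cilium genes carry an X-box, the site read by RFX transcription factors, near their start. RefSeq promoter windows (GRCm38.p6, 250 bases before to 50 after the start) were on hand for 30 of the 35 genes, in 31 windows. They were searched for the letters GTTNCC, 2 free letters and then GGNAAC, a run of 14 that reads the same on both strands, with at most 2 mismatches at its 10 fixed letters. 8 of the 30 genes, or 26.7%, held a match, beside 13.9% of all 32851 windows. With at most 1 mismatch it was 5 genes, or 16.7%, beside 2.56%, and with none 1 gene, or 3.33%, beside 0.451%. The first arm GTTNCC alone, on either strand and part of the longer motif, stood in 24 genes, or 80.0%, beside 45.3%. The windows of these genes had a median GC content of 60.0%, against 52.7% over all windows, and the shares were not adjusted for it. The 8 matches are shown because they are the closest to the X-box letters, 5' to 3' on the strand of the gene, with the 14 matched letters in capitals.
Bbs7, chr3:36613489-36613518, - strand: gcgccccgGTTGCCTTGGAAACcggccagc
Bbs1, chr19:4906605-4906634, - strand: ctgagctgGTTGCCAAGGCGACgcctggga
Bbs4, chr9:59353464-59353493, - strand: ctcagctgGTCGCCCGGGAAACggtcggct
Ift22, chr5:136908079-136908108, + strand: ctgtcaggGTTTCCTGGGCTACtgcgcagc
Ift57, chr16:49699199-49699228, + strand: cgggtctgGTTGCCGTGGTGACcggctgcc
Ift140, chr17:25015961-25015990, + strand: tggggcgtGTTGTGACGGCAACctcgcgcc
Ift52, chr2:163017337-163017366, + strand: gatacagtCTTTACCGGGAAACgggccagc
Wdr19, chr5:65199654-65199683, + strand: tttgcacgGTCTCCTGGGTGACgagaacgc

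Bbs7 had all 10 fixed letters. Bbs1, Bbs4, Ift22 and Ift57 had 9 of 10, and Ift140, Ift52 and Wdr19 had 8 of 10. Of these 8 genes, Bbs4 and Ift52 were called lower in the higher-number libraries and the other 6 were not called, and none was called between the genotypes. Ift80, Ift81, Ift122, Ttc30b and Dync2li1 had no window to search. A match is only a run of letters and shows no binding.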

How the data were processed

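RNA sequencing of 6 mouse corneal epithelium samples was analysed from 1 table. The authors deposited unnormalised read counts for each Ensembl gene. How reads were aligned and counted, and with which strand setting, build and annotation, is not given in the sources used here. Columns were matched to samples by title; 0 columns were left over. Names, positions and exon lengths came from GENCODE M21 (GRCm38), which was not checked against the authors' annotation and held 24942 of 25006 identifiers.

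Of 25006 genes, 12847 passed filterByExpr. Genotypes were compared with edgeR 4.0.16 (TMM, glmQLFit, glmQLFTest) in R 4.3.3, libraries labelled EphA2 null over wild type, with Benjamini-Hochberg adjustment over all tested genes and a threshold of 0.05. The title number range was tested with genotype in the model. An SE is the log2 fold change divided by the square root of F. CPM per kilobase uses merged exons. DESeq2 1.42.0, limma voom (limma 3.58.1), other scaling and filters, each sample left out, and samples sharing a genotype and a title number summed (for both comparisons) were alternatives. The fit was tested with simulated counts, with 50 genes at each fold: 12735 genes for genotype, 12721 with the title number term. These simulations hold the spread but not the separation of libraries by title number.

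Members and lists were chosen with earlier results of these data known, and so was the comparison of title number ranges. Values in every library are given for genes among the 8 smallest p-values of either comparison or the 4 highest or lowest per length; others are given by range. Adpgk, Shoc2 and Cetn4 are named for their overlap, and Mkks and Inpp5e were chosen after their values were seen.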

Additional observations from a re-analysis of the deposited data

How the results depend on the processing

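In every alternative run, edgeR with other scaling or filters, DESeq2, limma voom, the title number range as a term, samples sharing a title number summed, and each sample left out, 0 of 35 genes were called between the genotypes, so their signs carry no call: 133 of 560 alternative log2 fold changes had the other sign, in 34 genes. The median over the 35 ran from -0.15 to 0.034 when each sample was left out, the low value without the library labelled EphA2 null 1. Over all genes, the 1 call of edgeR became 5 with DESeq2, 17 with DESeq2 and the title number range as a term, 0 with samples sharing a title number summed, and 152 at an unadjusted p under 0.05; each sample left out gave 1. For the interaction, DESeq2 called 3 genes, none of the 35. No paired analysis was possible because the labels give no replicate numbers that the genotypes share.

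Between the title numbers, the 13 genes called lower became 8 with DESeq2 and 6 with samples sharing a title number summed, which was added after the data were seen. With each sample left out it was 0 to 9 called lower and 0 to 2 higher, of 1103 to 5803 genes called in all, with a median of -0.31 to -0.24. The count called lower was 8 without wild type 1, 5 without wild type 2, 4 without wild type 3, 0 without the library labelled EphA2 null 1, 9 without null 2 and 8 without null 3; with 5 libraries fewer differences can pass. At an unadjusted p under 0.05 in edgeR it was 17, beside 25.3% of all tested genes. For the other alternatives the share of all genes called lower is not given here. Those counts therefore do not show whether the 35 genes lost calls more than other genes did. For the X-box letters 5 genes matched with at most 1 mismatch, or 16.7%, beside 2.56% of all windows. With at most 3 mismatches it was 23 genes, or 76.7%, beside 63.4% of all windows. No sign of a called gene turned.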
